A study of Mus musculus with 6 samples.

Results

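Neurexins and neuroligins are cell adhesion proteins that meet across the synaptic cleft. Neurexins sit mainly on the presynaptic side, neuroligins bind them from the postsynaptic side, and the pair takes part in the assembly and specification of synapses. Neurexin genes, some of them very long, use several promoters, an upstream one for the long alpha forms and an internal one for the shorter beta forms. Accessible chromatin at 5 genes of these families was compared between mouse neural progenitors that carried an Nr6a1 virus and progenitors that carried a control virus. The genes were Nrxn2 and Nrxn3, which encode neurexins, and Nlgn1, Nlgn2 and Nlgn3, which encode neuroligins. An interval of the deposited table belonged to a gene if its midpoint lay inside the gene or if its nearest protein-coding gene end, within 500 kb, was that gene's. By this rule 60 of 52223 intervals were members, of which 37 belonged to Nrxn3, 12 to Nrxn2, 8 to Nlgn1, 2 to Nlgn3 and 1 to Nlgn2. No other interval had one of these genes as its nearest and lay beyond the limit, and the farthest member outside a gene was 68.2 kb from Nlgn1.

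Accessibility was measured by ATAC-seq: a transposase inserts adapters where DNA is exposed, and an exposed interval therefore yields more fragments. The Nr6a1OE group (3 libraries) received a lentivirus that encodes Nr6a1 joined to the fluorescent protein mScarlet3 through a 2A peptide, and the mScarlet group (3 libraries) a lentivirus with mScarlet3 alone. Nr6a1 (germ cell nuclear factor) belongs to the orphan nuclear receptors and represses genes such as Pou5f1 in differentiating embryonic stem cells. Cells of all 6 libraries came from mouse embryonic stem cells under 1 differentiation scheme, with 5 µM of the GSK3 inhibitor CHIR99021 on day 2, 100 nM retinoic acid and 10 nM Smoothened agonist from day 3, and only the agonist after day 5. Cells were transduced on day 5, and on day 9 fluorescent cells were sorted, 50000 for each library. The sources used here do not give the stem cell line, the promoter of the virus or the level of Nr6a1 reached. Whether libraries of a group stem from separate cultures is not in the labels, and any spread among libraries may therefore be technical. The spread beyond counting that edgeR fitted in common over all tested intervals was small (coefficient of variation 1.47%). Its SE and p-values at single intervals therefore reflect mostly counting noise and do not measure variation between cultures.

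Libraries held 6857763 to 8030029 fragments in intervals. The labelled cell type was checked at gene ends. All 9 neural progenitor genes examined (among them Sox1, Sox2 and Nes) had an interval within 1 kb of an end. None of 4 pluripotency genes (Pou5f1, Nanog, Zfp42 and Dppa3) and none of 6 other genes (Gata1, Ptprc, Cdh5, Alb, Myod1 and Foxa2) did. Of 8 neuronal genes 6 had one, and Elavl3 and Dcx did not. The strongest gene-end intervals summed to 269 CPM in Nr6a1OE and 279 CPM in mScarlet over the neuronal genes, and to 778 CPM in Nr6a1OE and 777 CPM in mScarlet over the progenitor genes. CPM is the fragment count scaled by library size and TMM factor. The part of cell composition in the differences given below was not tested. The 5 genes were selected on fold changes and adjusted p-values of this same comparison, so the fold changes, adjusted p-values and counts of members describe where each interval stands in a fit over the whole table and are no evidence about the families.

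RefSeq start windows, which span 250 bases before to 50 after an annotated transcription start, were available for Nrxn3 (3 windows), Nlgn1 (2) and Nlgn2 (1) on GRCm38.p6, the assembly that mm10 coordinates follow. An interval of the table covered all 300 bases of the windows of Nlgn2, of the upstream Nlgn1 start and of the most downstream Nrxn3 start, and 165 of the 300 bases at the internal Nlgn1 start. No interval overlapped the other Nrxn3 windows. No window was available at the lower-coordinate end of Nrxn3 (88722701), the upstream end on its plus strand, or for Nrxn2 and Nlgn3. An interval did lie over that end of Nrxn3 (88722091 to 88723362), so the windows do not describe all starts of the gene. The 3 fully covered windows and the uncovered Nrxn3 window with the fewest CpG dinucleotides are shown, as examples of available windows with and without an interval. Capitals mark CpG dinucleotides, and each sequence reads 5′ to 3′ on the strand of the gene.
Nlgn2, chr11:69837735-69838034, minus strand: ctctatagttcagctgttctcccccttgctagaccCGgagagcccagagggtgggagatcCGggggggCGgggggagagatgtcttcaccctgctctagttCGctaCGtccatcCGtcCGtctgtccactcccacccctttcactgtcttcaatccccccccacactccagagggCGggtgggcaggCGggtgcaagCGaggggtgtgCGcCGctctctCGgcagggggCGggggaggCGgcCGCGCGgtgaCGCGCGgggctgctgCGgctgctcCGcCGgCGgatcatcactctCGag
Nrxn3 most downstream start, chr12:89812233-89812532, plus strand: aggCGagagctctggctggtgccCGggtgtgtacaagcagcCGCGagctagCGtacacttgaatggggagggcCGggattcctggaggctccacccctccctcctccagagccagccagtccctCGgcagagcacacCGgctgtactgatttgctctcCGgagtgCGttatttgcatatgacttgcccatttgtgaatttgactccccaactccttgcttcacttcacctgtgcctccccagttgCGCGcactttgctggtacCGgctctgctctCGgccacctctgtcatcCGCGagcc
Nlgn1 upstream start, chr3:26331860-26332159, minus strand: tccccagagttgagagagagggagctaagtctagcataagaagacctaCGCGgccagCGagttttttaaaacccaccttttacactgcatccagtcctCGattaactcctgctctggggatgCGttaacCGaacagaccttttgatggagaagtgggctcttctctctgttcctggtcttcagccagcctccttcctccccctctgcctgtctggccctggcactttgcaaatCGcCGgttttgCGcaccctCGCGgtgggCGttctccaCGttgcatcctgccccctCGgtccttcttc
Nrxn3 start without an interval, chr12:88794254-88794553, plus strand: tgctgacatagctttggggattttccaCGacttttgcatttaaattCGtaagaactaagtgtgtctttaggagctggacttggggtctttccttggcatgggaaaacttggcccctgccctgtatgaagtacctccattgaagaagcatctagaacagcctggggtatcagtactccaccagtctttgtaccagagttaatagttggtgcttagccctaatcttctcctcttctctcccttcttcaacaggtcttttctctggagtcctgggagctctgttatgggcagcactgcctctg
The windows held 26 CpG dinucleotides at Nlgn2, 16 at the most downstream Nrxn3 start, 14 at the upstream Nlgn1 start and 2 at the uncovered Nrxn3 start, against a median of 7 over all 32851 windows of the RefSeq table. The internal Nlgn1 window and the second uncovered Nrxn3 window, not printed, held 6 each. The half-site AGGTCA, which nuclear receptors of the Nr6a1 type bind, was sought on both strands, as were the extended site TCAAGGTCA and the direct repeat of AGGTCA without a spacer, both of which contain it. None of the 6 windows of the family held any of them. Over all windows AGGTCA was found in 16.3%, TCAAGGTCA in 0.423% and the direct repeat in 0.0061%.

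Of the 60 member intervals 58 passed the filter on low counts and were tested, and 5 fell in Nr6a1OE (Benjamini-Hochberg adjusted p under 0.05 over all 51637 intervals tested, edgeR's quasi-likelihood test). Over all tested intervals, 1.26% were lower by this rule, 0.469% were higher and 1.73% passed in either direction. Of the 5, 4 lay inside Nrxn3 and 1 inside Nlgn1. No member interval was higher at the adjusted threshold. At an unadjusted p under 0.05, 13 member intervals were lower and 2 higher by edgeR, where 6.87% of all tested intervals were lower and 5.73% higher at that threshold. DESeq2 called 1 member lower and 0 higher, against 0.215% lower and 0.00867% higher of all intervals to which it gave an adjusted p. The median log2 fold change (Nr6a1OE over mScarlet) was -0.09 over the 58 members and 0.0038 over all intervals tested. Fold changes were below 0 at 39 of the 58 members, or 67.2%, and at 49.2% of all tested intervals. The libraries of the groups were fully separated in 17 of the 58 and in 16.6% of all tested intervals. Nr6a1OE was the lower group in 13 of the 17, and in 8.73% of all tested intervals it was lower and separated. The uncalled member nearest to the threshold was at Nrxn2 (adjusted p = 0.0704), and the called member nearest to it was at Nrxn3 (adjusted p = 0.0329, both by edgeR).

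**Figure D1:**
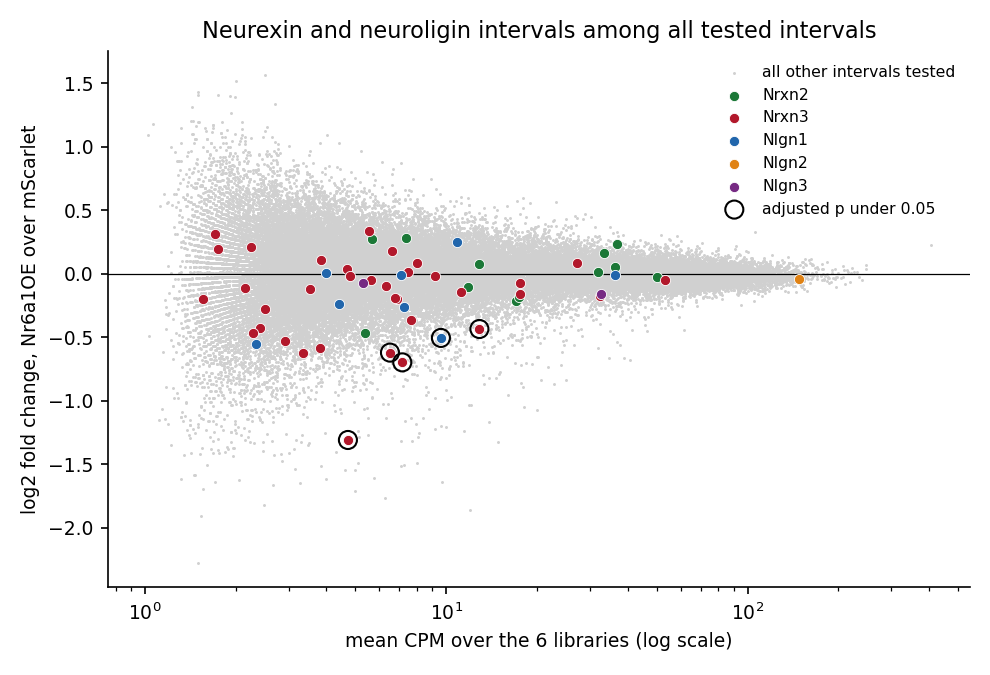
Log2 fold change of accessibility (Nr6a1OE over mScarlet) against mean CPM over the 6 libraries on a log axis. Grey points are all other tested intervals, coloured points the 58 tested neurexin and neuroligin intervals, and rings the 5 with an adjusted p under 0.05. The ringed points lie between -0.43 and -1.31 on the log2 axis and at 4.72 to 12.9 CPM.

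No interval over an annotated start or within 1 kb of a gene end was called at these genes by edgeR or DESeq2. At Nlgn2, which encodes the neuroligin of inhibitory synapses, the single member interval (mm10, chromosome 11, 69836838 to 69838964) spanned the gene's start. It held 148.2, 143.1 and 146.6 CPM in Nr6a1OE 1, 2 and 3, against 146.9, 151.5 and 152.6 CPM in mScarlet 1, 2 and 3, and the groups overlapped. Its log2 fold change was -0.04 (SE 0.038; edgeR adjusted p = 0.706), and -0.09 with chromosome medians removed (edgeR adjusted p = 0.238). The body of Nlgn2, 14.7 kb long, held no interval midpoint. Nlgn3 acts at both excitatory and inhibitory synapses. Its stronger interval, 11.4 kb outside the gene (chromosome X, 101332162 to 101333336), held 26.8, 31.8 and 33.6 CPM in Nr6a1OE against 30.1, 35.0 and 38.0 CPM in mScarlet, with overlapping groups and a log2 fold change of -0.16 (edgeR adjusted p = 0.368, SE 0.078). That value was -0.07 without Nr6a1OE 1 or mScarlet 3 and -0.25 without mScarlet 1. The other Nlgn3 interval, inside the gene 1.5 kb from its lower-coordinate end, averaged 5.20 ± 0.58 CPM in Nr6a1OE and 5.40 ± 1.09 CPM in mScarlet (SD, n = 3 each). Its groups also overlapped.

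Nrxn2 encodes a neurexin, and the interval at its lower-coordinate end (chromosome 19, 6417980 to 6419119) held 51.0, 46.3 and 51.9 CPM in Nr6a1OE, against 50.0, 51.3 and 50.7 CPM in mScarlet. These values overlapped, with a log2 fold change of -0.02 (edgeR adjusted p = 0.926, SE 0.063). Nlgn1 encodes the neuroligin of excitatory synapses, and the interval over its upstream start (chromosome 3, 26331066 to 26334022) held 37.4, 35.9 and 35.5 CPM in Nr6a1OE, against 37.7, 39.8 and 32.4 CPM in mScarlet, with a log2 fold change of about 0 (-0.0080, SE 0.074, edgeR adjusted p = 0.977). The mScarlet libraries spanned the values of all 3 Nr6a1OE libraries there. At the internal Nlgn1 start the interval (26152521 to 26154101) held 10.8, 12.2 and 12.4 CPM in Nr6a1OE, against 8.90, 12.4 and 8.74 CPM in mScarlet. It had the most positive log2 fold change of that gene among intervals with at least 20 fragments per library on average, 0.25 (edgeR adjusted p = 0.440, SE 0.13), and mScarlet 2 overlapped the Nr6a1OE libraries. It was 0.42 without mScarlet 2 and 0.16 without mScarlet 3.

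At Nrxn3 the interval over the most downstream annotated start (chromosome 12, 89811644 to 89813028) was the strongest of the gene. It held 52.4, 50.6 and 54.1 CPM in Nr6a1OE, against 54.9, 52.3 and 55.0 CPM in mScarlet, overlapping groups with a log2 fold change of -0.05 (edgeR adjusted p = 0.831, SE 0.061), between -0.02 without Nr6a1OE 2 and -0.07 without Nr6a1OE 3. The interval at the lower-coordinate end of the gene (88722091 to 88723362) was weaker, with 8.24, 8.62 and 7.95 CPM in Nr6a1OE against 6.57, 8.45 and 8.37 CPM in mScarlet and a log2 fold change of 0.08 (edgeR adjusted p = 0.890, SE 0.16). Its groups overlapped as well.

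Per kilobase of interval, the order of levels in Nr6a1OE was Nlgn2 at 68.6 ± 1.21 CPM per kb, the Nrxn2 end at 43.6 ± 2.60, the most downstream Nrxn3 start at 37.8 ± 1.28, the Nlgn3 interval outside the gene at 26.2 ± 2.96, the upstream Nlgn1 start at 12.3 ± 0.34, the internal Nlgn1 start at 7.44 ± 0.54 and the lower-coordinate end of Nrxn3 at 6.50 ± 0.26 (SD, n = 3). The order of the means was the same in mScarlet, from 70.7 ± 1.43 CPM per kb at Nlgn2 to 6.13 ± 0.83 at the lower-coordinate end of Nrxn3 (SD, n = 3). Ranges over libraries did not overlap between neighbours in this order, except for the last pair in mScarlet.

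The 4 called Nrxn3 intervals lay inside the gene, and none overlapped an annotated start window. Nrxn3 spans 1612.2 kb (chromosome 12, 88722701 to 90334935), and 36 of its 37 intervals had their midpoint inside it, or 2.23 per 100 kb, against 0.768 for Nlgn1 and 9.61 for Nrxn2. The interval with the largest change was at 88800914 to 88802033, 78.8 kb inside the gene. It lay between the first and second of the start windows available for Nrxn3, a short way past the first (88794254 to 88794553) and far from the second (88953140 to 88953439). It held 15, 19 and 26 fragments in Nr6a1OE 1, 2 and 3, against 55, 40 and 55 in mScarlet 1, 2 and 3. These counts correspond to 2.13, 2.68 and 3.28 CPM in Nr6a1OE, against 7.53, 5.83 and 6.87 CPM in mScarlet. Every Nr6a1OE library was below every mScarlet library, with a log2 fold change of -1.31 and an SE of 0.21 (edgeR adjusted p = 6.54e-07). This was the member interval that DESeq2 also called (log2 fold change -1.31, adjusted p = 0.00709), and no omission of a single library ended its call (highest edgeR adjusted p = 3.86e-04).

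A second Nrxn3 interval, at 89041365 to 89042562 and 319.3 kb inside the gene, held 5.68, 5.93 and 4.79 CPM in Nr6a1OE, against 9.04, 8.60 and 8.87 CPM in mScarlet. The groups did not overlap, and the log2 fold change was -0.70 (SE 0.17; edgeR adjusted p = 0.00446). Its call was lost without Nr6a1OE 3 (edgeR adjusted p = 0.0785) and in DESeq2 (adjusted p = 0.367).

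The third, at 89530773 to 89531390 near the middle of the gene, held 5.82, 4.94 and 4.67 CPM in Nr6a1OE, against 7.80, 7.58 and 8.24 CPM in mScarlet. Again all Nr6a1OE libraries were lower, with a log2 fold change of -0.62 and an SE of 0.17 (edgeR adjusted p = 0.0285). That call was kept only in the leave-one-out fit without Nr6a1OE 1 (edgeR adjusted p = 0.0332). It was lost without Nr6a1OE 2 (0.102), Nr6a1OE 3 (0.167), mScarlet 1 (0.0881), mScarlet 2 (0.0520) or mScarlet 3 (0.147), and in DESeq2 (adjusted p = 0.784).

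In the fourth, at 89986068 to 89986887 and 348.5 kb from the upper-coordinate end, the groups were closest. It held 8.52, 10.5 and 13.6 CPM in Nr6a1OE, against 14.0, 17.0 and 13.7 CPM in mScarlet, so that Nr6a1OE 3 lay just below mScarlet 3. The log2 fold change was -0.43 (SE 0.12; edgeR adjusted p = 0.0329). It was not called without Nr6a1OE 1 (edgeR adjusted p = 0.377, log2 fold change -0.29), Nr6a1OE 2 (0.138), mScarlet 1 (0.0686) or mScarlet 2 (0.262), nor by DESeq2 (adjusted p = 0.910).

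Among the other Nrxn3 intervals no difference was called. Of the 35 tested, 25 had a log2 fold change below 0 and 10 above, with a median of -0.12. At an unadjusted p under 0.05 there were 9 lower, including the 4 called, and 0 higher by edgeR, beside 6.87% lower and 5.73% higher of all tested intervals, in a gene selected on this comparison. The most positive among intervals with at least 20 fragments per library, at 89442414 to 89443387, held 5.54, 6.36 and 6.69 CPM in Nr6a1OE against 5.07, 4.81 and 4.87 CPM in mScarlet. Its groups did not overlap, but the log2 fold change of 0.34 (SE 0.19) did not pass (edgeR adjusted p = 0.459). Both untested Nrxn3 intervals were weak, at 1.62 CPM in Nr6a1OE and 0.910 CPM in mScarlet at 89174281, and 0.856 CPM in Nr6a1OE and 0.646 CPM in mScarlet at 89851219.

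**Figure D2:**
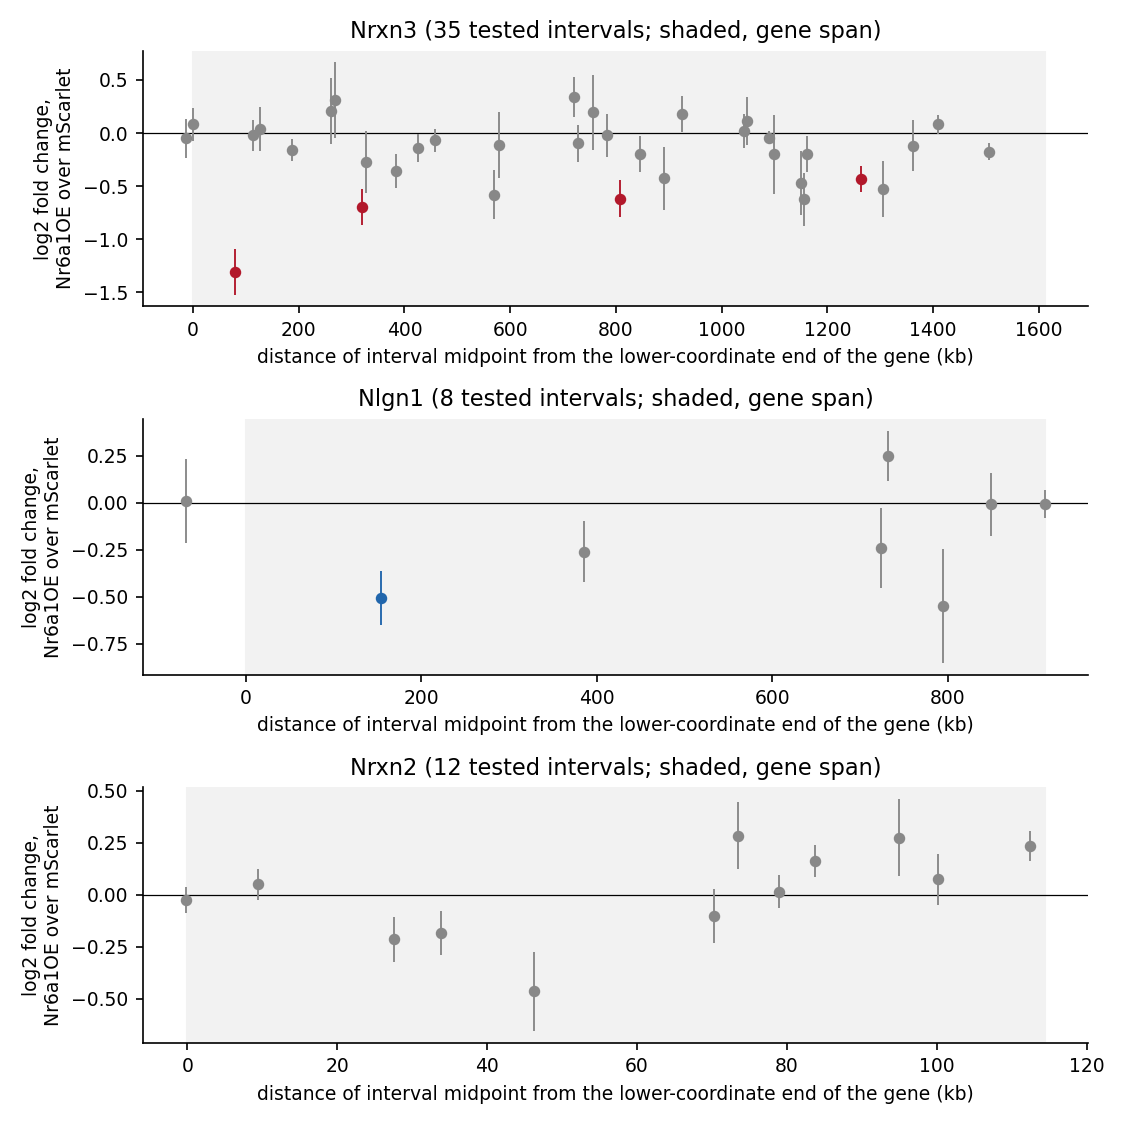
Log2 fold change (Nr6a1OE over mScarlet, points, with SE bars) of each tested interval of Nrxn3, Nlgn1 and Nrxn2 against the distance of its midpoint in kb from the lower-coordinate end of the gene, with the gene span shaded. Coloured points passed an adjusted p of 0.05. The called Nrxn3 points, at -1.31, -0.70, -0.62 and -0.43, are spread along the gene with uncalled points between them, and no Nrxn2 point is coloured.

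At Nlgn1, which spans 911.1 kb (chromosome 3, 25421808 to 26332866), 1 of 8 intervals fell, beside 1.26% lower of all tested intervals, in a gene selected on this comparison. The called interval lay at 25575134 to 25576008, 153.8 kb from the lower-coordinate end, which is the end opposite to the annotated starts. It held 7.95, 8.05 and 7.82 CPM in Nr6a1OE against 10.5, 11.7 and 11.6 CPM in mScarlet. All Nr6a1OE libraries were below all mScarlet libraries, with a log2 fold change of -0.51 and an SE of 0.14 (edgeR adjusted p = 0.0313). The call did not hold without any 1 library, with edgeR adjusted p of 0.0945, 0.0784 and 0.116 without Nr6a1OE 1, 2 and 3, and 0.0563, 0.101 and 0.145 without mScarlet 1, 2 and 3, and DESeq2 did not make it (adjusted p = 0.780). Log2 fold changes of the other 7 Nlgn1 intervals ran from -0.55 to 0.25, and the median of all 8 was -0.13.

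At Nrxn2, 114.5 kb long (chromosome 19, 6418756 to 6533217), none of 12 intervals was called by edgeR or DESeq2. At an unadjusted p under 0.05, 2 were lower and 2 higher by edgeR, beside 6.87% lower and 5.73% higher of all tested intervals. Its intervals had a median log2 fold change of 0.03, with 7 above 0 and 5 below. The most negative, at 6464211 to 6465601, held 3.98, 4.10 and 5.43 CPM in Nr6a1OE against 5.07, 6.41 and 7.24 CPM in mScarlet, overlapping groups with a log2 fold change of -0.47 (edgeR adjusted p = 0.238, SE 0.19). The most positive, at 6492007 to 6492550, held 9.66, 7.35 and 7.32 CPM in Nr6a1OE against 6.30, 6.27 and 7.24 CPM in mScarlet, groups that just failed to overlap, with a log2 fold change of 0.28 (edgeR adjusted p = 0.478, SE 0.16), or 0.15 without Nr6a1OE 1. The Nrxn2 interval nearest to the threshold, singled out after its values were seen, lay 2.1 kb inside the upper-coordinate end (6529670 to 6532583). It held 40.8, 37.3 and 41.3 CPM in Nr6a1OE, against 32.3, 35.4 and 34.0 CPM in mScarlet, all Nr6a1OE libraries being higher, with a log2 fold change of 0.23 and an SE of 0.074 (edgeR adjusted p = 0.0704).

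**Figure D3:**
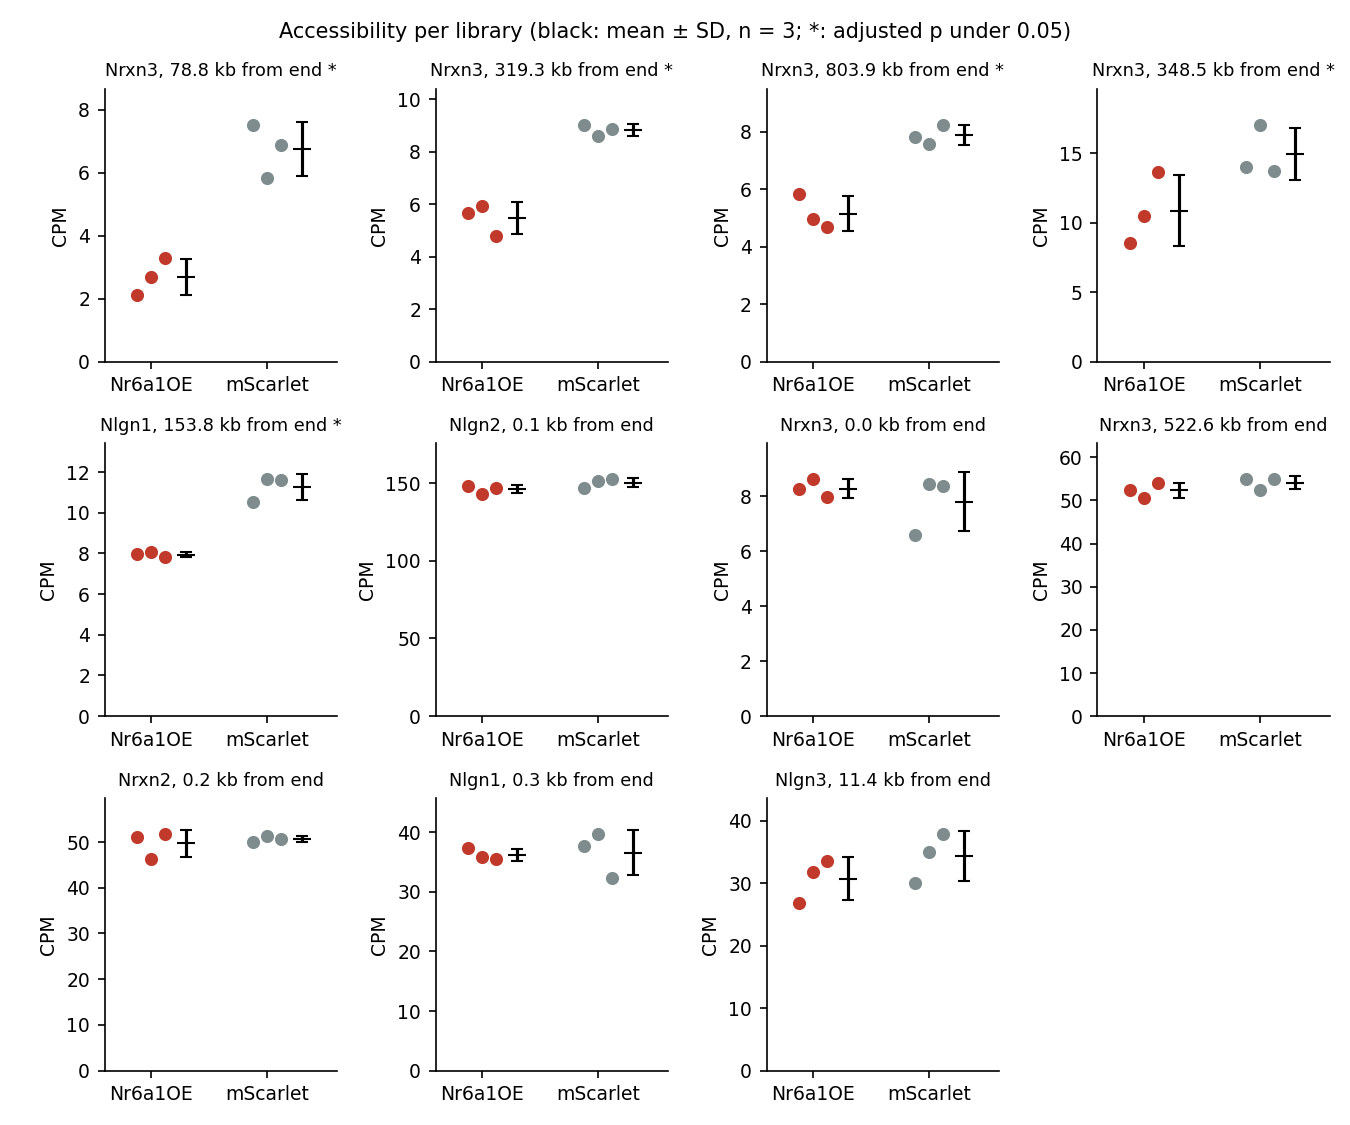
CPM of each library (points) in Nr6a1OE and mScarlet, with mean ± SD (n = 3), at the 5 called intervals (asterisks) and at the gene-end and strongest intervals of each gene, labelled by distance to the nearer gene end. The groups separate in the panels with an asterisk and overlap in the others, such as Nlgn2 at 143.1 to 148.2 CPM in Nr6a1OE and 146.9 to 152.6 CPM in mScarlet.

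To set a gene with many intervals beside one with few, fragments were summed over the intervals of each gene and tested over all 16500 genes that passed the filter, where an interval that belonged to several genes counted in each. These gene totals are scaled to the sum over genes, so that their CPM are lower than those of single intervals. Nrxn3 fell, with 272, 272 and 276 CPM in Nr6a1OE against 297, 300 and 301 CPM in mScarlet. Its groups were well apart, although the log2 fold change was only -0.13 (edgeR adjusted p = 0.00143, SE 0.029). Across genes 1.12% were lower by this rule and 0.867% higher, and of the 223 tested genes at least 500 kb long 5.83% were lower and 0.897% higher. DESeq2 made the Nrxn3 call too (adjusted p = 0.0256), and with any single library omitted it stayed (edgeR adjusted p = 0.00506 to 0.0130).

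On the interval scale, the 4 called Nrxn3 intervals summed to 24.2 ± 2.11 CPM in Nr6a1OE and 38.4 ± 0.67 CPM in mScarlet (SD, n = 3 each). The other 33, with 88.0% of the gene's CPM in mScarlet, summed to 268.5, 266.0 and 268.4 CPM in Nr6a1OE against 280.9, 280.9 and 283.6 CPM in mScarlet, a log2 ratio of means of -0.07. Those sums did not overlap either, and since the split was made by the calls it carries no test.

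The totals of the other 4 genes did not pass, and their fold changes moved with single libraries or settings. Nlgn3 had 33.7 ± 3.04 CPM in Nr6a1OE and 37.2 ± 4.13 CPM in mScarlet, a log2 fold change of -0.14 (edgeR adjusted p = 0.357, SE 0.071), which was -0.07 without Nr6a1OE 1, -0.05 without mScarlet 3 and -0.22 without mScarlet 1. Nlgn1 had 74.5 ± 1.76 CPM in Nr6a1OE and 78.8 ± 3.07 CPM in mScarlet, a log2 fold change of -0.08 (edgeR adjusted p = 0.522, SE 0.050), or -0.05 without mScarlet 2. The libraries of the groups overlapped in both genes. Nlgn2 had 136.7 ± 2.12 CPM in Nr6a1OE and 140.5 ± 3.32 CPM in mScarlet, and Nrxn2 had 252 ± 13.1 CPM in Nr6a1OE and 246 ± 4.24 CPM in mScarlet (SD, n = 3 each throughout), with edgeR adjusted p of 0.717 and 0.641. The Nlgn2 total had a log2 fold change of -0.04, or -0.09 with chromosome medians removed, and the Nrxn2 total one of 0.04, between 0.0088 without Nr6a1OE 3 and 0.08 without Nr6a1OE 2. Whether Nrxn3 differs from the other genes of the family was not tested.

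**Figure D4:**
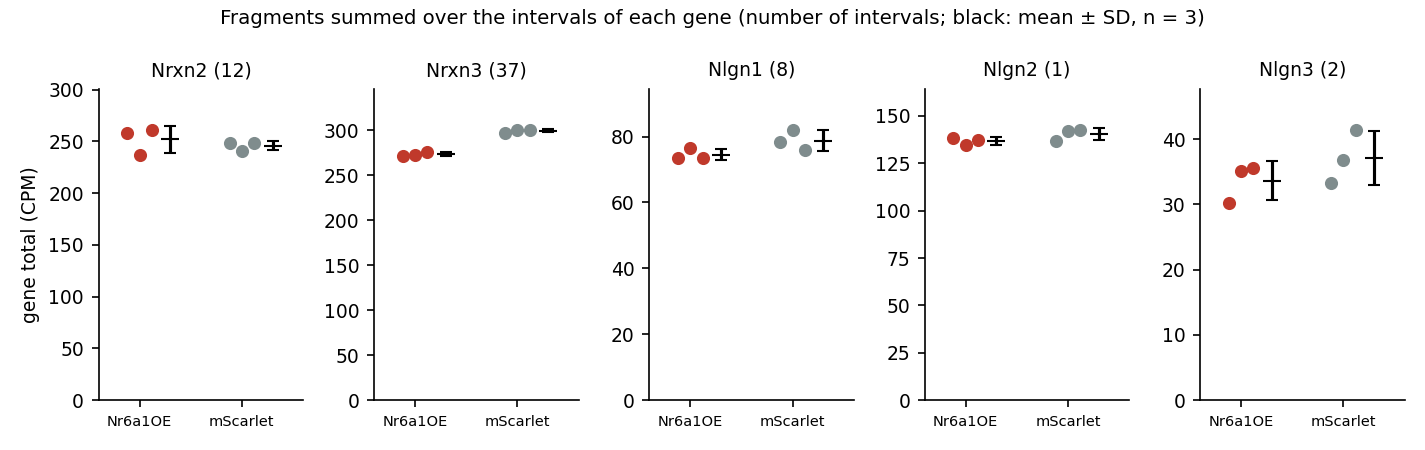
Gene totals in CPM, fragments summed over the intervals of each gene (number of intervals in the panel titles), per library in Nr6a1OE and mScarlet, with mean ± SD (n = 3) and axes from 0. The Nrxn3 libraries lie at 272 to 276 in Nr6a1OE and 297 to 301 in mScarlet, and the groups of each other gene overlap.

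Nrxn3 and Nlgn1 share great length, and intervals in long genes were set beside them as a background chosen after the values were seen. Inside other genes of at least 500 kb, 49 of 2323 tested intervals were lower, or 2.11%, and 0.301% were higher. Inside genes under 500 kb 1.02% of 28145 were lower and 0.426% higher. Intervals in the long genes were weaker, with a median of 4.95 CPM against 10.5 CPM in the shorter ones, and had a median log2 fold change of -0.03 against 0.0021. The part of gene length in the Nrxn3 and Nlgn1 values was not tested.

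By Pearson's r of log2 gene totals over the 6 libraries, among 14307 genes compared, the totals most like that of Nrxn3 were those of Zfp414 (r = 0.997) and of Pomt2 and Gstz1 (r = 0.996 each, from the same intervals). Those most like Nlgn1 were Dach2 (0.989), Chd1l and Fmo5 (0.987 each, also from the same intervals). Closest to Nrxn2 were Kbtbd11 (0.987), Lrrc15 (0.985) and Kcnh4 (0.983). Arhgap24 (0.994), Wdpcp (0.987) and Zfp472 (0.986) came nearest to Nlgn2, and Sparc, P2rx7 and Emsy (0.987, 0.986 and 0.981) to Nlgn3. As the highest of 14307 genes over only 6 libraries, such r values are high by selection alone. The libraries also share the group difference and depth, and no test was made.

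The same fit was read at 46 genes of the synaptic partners of these proteins. Of 296 tested intervals 5 fell and 1 rose in Nr6a1OE, shares close to those of the whole table (1.26% and 0.469%), and the median log2 fold change was 0.0052. Of the called intervals 5 were at neurexin ligands, which had 4 lower and 1 higher of 92. The 12 scaffold genes (81 intervals) and the neuroligin regulators Mdga1 and Mdga2 (13) had none by edgeR or DESeq2, and the other synaptic adhesion genes 1 lower of 110. At an unadjusted p under 0.05 the scaffold genes had 6 lower and 4 higher, and the regulators 2 lower and 1 higher, beside 6.87% lower and 5.73% higher of all tested intervals. DESeq2 called 1 of the partner intervals, that at Cbln1.

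Among the called partner intervals the largest fall was near Cbln1, which encodes a secreted cerebellin that links neurexins to a glutamate receptor. Its interval, 237.3 kb from the gene, held 9.66, 10.6 and 12.4 CPM in Nr6a1OE, against 20.4, 21.6 and 21.6 CPM in mScarlet. All Nr6a1OE libraries were lower, with a log2 fold change of -0.95 and an SE of 0.11 (edgeR adjusted p = 1.79e-13), a call that DESeq2 shared and that no omission of a single library ended (DESeq2 adjusted p = 4.70e-06). Intervals 51.0 kb from Nxph1, which encodes the neurexin ligand neurexophilin 1 (-0.45, SE 0.094), and 100.0 kb from Cbln4, another cerebellin gene (-0.64, SE 0.17), also fell. So did intervals 263.0 kb from the latrophilin gene Adgrl2 (-0.58, SE 0.16) and 145.2 kb from the adhesion gene Cadm1 (-0.48, SE 0.14). An interval inside Nxph2, a neurexophilin gene, and 0.2 kb from a gene end rose (0.53, SE 0.14). It held 12.2, 10.5 and 11.99 CPM in Nr6a1OE against 8.21, 6.99 and 8.62 CPM in mScarlet. The edgeR adjusted p of these 5 was 5.81e-04 at Nxph1, 0.0166 at Cbln4, 0.0189 at Adgrl2, 0.0452 at Cadm1 and 0.0170 at Nxph2. Each was lost on leaving out a library: Nxph1 without Nr6a1OE 3 (0.0673) and Cbln4 without Nr6a1OE 3 or mScarlet 3 (0.175 and 0.189). Nxph2 was lost without Nr6a1OE 1, Nr6a1OE 3, mScarlet 1 or mScarlet 2 (0.0988, 0.0918, 0.0607 and 0.130). Adgrl2 was lost without Nr6a1OE 2, mScarlet 2 or mScarlet 3 (0.266, 0.137 and 0.0519), and Cadm1 without any but Nr6a1OE 3 (0.253 without Nr6a1OE 1, 0.273 without Nr6a1OE 2, and 0.111, 0.147 and 0.109 without mScarlet 1, 2 and 3). With chromosome medians removed the Cadm1 call was also lost (edgeR adjusted p = 0.0527).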

How the data were processed

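ATAC-seq fragments were measured in 3 Nr6a1OE and 3 mScarlet libraries. The authors deposited raw counts of fragments for 52223 consensus intervals, made with featureCounts 2.0.1 on read pairs (a fragment counted in every interval it overlapped by at least 0.2 of its length), per the file headers. The build is mm10, per the submitters' processing notes. For the aligner, peak caller, duplicates, Tn5 shift and merging of intervals, the steps are not given in the sources. A fragment over neighbouring intervals was counted in each, so neighbours are not fully independent.

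Gene spans came from RefSeq (GRCm38.p6, 21896 protein-coding genes, without exons or introns), and distances run from interval midpoints. The filter filterByExpr removed 586 intervals. Counts were scaled by TMM and tested with edgeR 4.0.16 (glmQLFit, glmQLFTest, R 4.3.3, no covariate). The method was run on simulated counts with noise drawn from the fitted dispersion. It recovered 58% of planted log2 changes of 0.3, 78% of 0.5 and 100% of 1.0. Changes were planted only in intervals with more fragments than some called members held, so the simulation does not cover the weaker members. The SE is the absolute log2 fold change over the square root of F. At the 5 called member intervals it was 0.12 to 0.21 in edgeR, close to counting noise, and 0.18 to 0.30 in DESeq2. Alternatives were DESeq2 1.42.0, its size factors in edgeR, no filter, a replicate block, loess offsets (limma 3.58.1), chromosome medians removed, Nr6a1OE 1 and 3 summed, each library left out, and other assignment limits. Each library was kept as a separate sample. Replicates of a group exceeded counting noise only slightly (ratio of chi-square to its degrees of freedom 1.05 to 1.10). That excess does not show whether they stem from separate cultures.

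Named intervals were those with an adjusted p under 0.05, the strongest within 1 kb of each gene end, the strongest of each gene, and the extremes of fold change where libraries averaged 20 or more fragments; called partner intervals and the 3 genes most like each member were also named. Members, lists and rules were chosen with earlier results of these data known.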

Additional observations from a re-analysis of the deposited data

How the results depend on the processing

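None of the 5 called member intervals changed sign under the alternatives run. DESeq2 called 1 member interval, 1 partner interval and 103 of all intervals, against 5, 6 and 894 by edgeR. Leaving out 1 library left 2 to 3 member intervals and 493 to 734 of all intervals called. There were 3 member calls without Nr6a1OE 1 or mScarlet 3 and 2 without any of the others. Each other alternative fit called 5 member intervals. A limit of 100 kb could not change this count, because the farthest member lay 68.2 kb outside its gene. Assignment by nearest gene end alone gave 4. Partner calls were 5 with chromosome medians removed and 4 to 6 with 1 library left out. The median over members stayed between -0.10 and -0.05, and the Nrxn3 total between -0.14 and -0.12 on the log2 scale. Signs changed at uncalled values near 0: Nrxn3 at 88722091 without mScarlet 1 (-0.025), Nrxn2 at 6417980 without Nr6a1OE 2 (0.023), and Nlgn1 at 26331066 with chromosome medians removed (0.0067) or without Nr6a1OE 3 (0.0091), mScarlet 1 (0.017) or mScarlet 2 (0.053). With 1 library left out these 3 ranged over -0.025 to 0.144, -0.057 to 0.023 and -0.093 to 0.053. Over other single results and alternatives 291 values kept direction and call status and 41 lost the call. Many of the 291 belong to intervals or gene totals without a call in the main fit, which had none to lose.

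With the replicate number as a block, 5 member intervals and 841 of all intervals were called and no call at a named member changed. Deviations of libraries with the same number had correlations of -0.0145 to 0.0193 over 27090 intervals. Since replicates of a group differed by little more than counting noise, these values cannot tell whether equal numbers were paired. The called member intervals averaged 35.0 to 95.2 fragments per library, and at that depth small differences may not have been detectable. The cause of the loss of calls was not tested.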
